A study of Mus musculus with 6 samples.

Results

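The 39 Hox genes of the Hoxa, Hoxb, Hoxc and Hoxd clusters were followed in bone marrow of mice labelled Cbx2-/- and wild-type. They were all the rows of the deposited table whose gene name is Hox, a cluster letter from a to d and a number, and they make up 39 of its 22838 genes. They were taken without any filter on expression and ordered by cluster and position. The libraries came from the marrow of the tibia and femur of 3 Cbx2-/- mice and 3 wild-type mice, all 3 weeks old and of the mixed strain 129/C57BL/6. Cbx2-/- mice weighed 4.0 g on average, against 12.3 g for wild-type mice. The labels name no driver line and describe neither the Cbx2 allele nor the sex of the animals. They give 3 mice and 3 replicate libraries per genotype, without tying a library to a mouse.

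Hox genes encode homeodomain transcription factors that give cells along the body axis and the limbs their positional identity. Their order along each cluster follows the order in which they act from head to tail, so that low numbers are used anteriorly and high numbers posteriorly. Polycomb complexes keep Hox genes silent where they are not used, and Cbx2 encodes a chromodomain subunit of Polycomb repressive complex 1 whose loss in mice shifts vertebral identity. In blood formation, Hoxa and Hoxb genes are best known in stem and progenitor cells, whereas mesenchymal cells of the limb skeleton keep the Hox code of their position.

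Values are FPKM, the authors' fragment numbers scaled to transcript length and to the mapped fragments of the library. Summed FPKM was 599601 to 741192 per library, and read totals were not used here. For a transcript of 2000 bases, 1 read was worth an estimated 0.0391 to 0.0521 FPKM, so a Hox level well under 1 FPKM rests on only a handful of reads. Markers of blood cells were abundant in every library, as the tissue label says: the summed level of 5 neutrophil markers was 24900 to 44900 FPKM in Cbx2-/- marrow and 20100 to 20800 FPKM in wild-type marrow. The 7 skeletal muscle markers summed to 313, 358 and 11.1 FPKM in Cbx2-/- replicates 1, 2 and 3 and to 20.1 to 25.8 FPKM in wild-type libraries, so Cbx2-/- replicates 1 and 2 stand apart from the others. Cbx2 itself was at 2.11, 1.87 and 1.88 FPKM in Cbx2-/- marrow and at 2.90, 3.83 and 2.75 FPKM in wild-type marrow (limma adjusted p = 0.0558). The groups did not overlap, but the gene was not at 0 in the libraries labelled Cbx2-/-, and since the deleted part of the gene is not known here, its level does not show that Cbx2 was lost. It lies on chromosome 11, as the Hoxb cluster does, 22.7 Mb away.

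Hox transcripts were scarce in this marrow. The highest value of any Hox gene in any library was 3.52 FPKM. Of the 39 genes, 26 were above 0 in all 6 libraries, 8 were above 0 in some, and 5 were listed at 0 in all: Hoxb13, Hoxc12, Hoxd1, Hoxd12 and Hoxd13. A mean of at least 1 FPKM in either genotype was reached by 8 genes, Hoxa5, Hoxa7, Hoxa9, Hoxa10, Hoxb2, Hoxc6, Hoxc10 and Hoxd8. Genes at the ends of the clusters, Hoxa13, Hoxb1, Hoxb13, Hoxc4, Hoxc13, Hoxd1 and Hoxd13, were at or under 0.404 FPKM in every library.

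**Figure D1:**
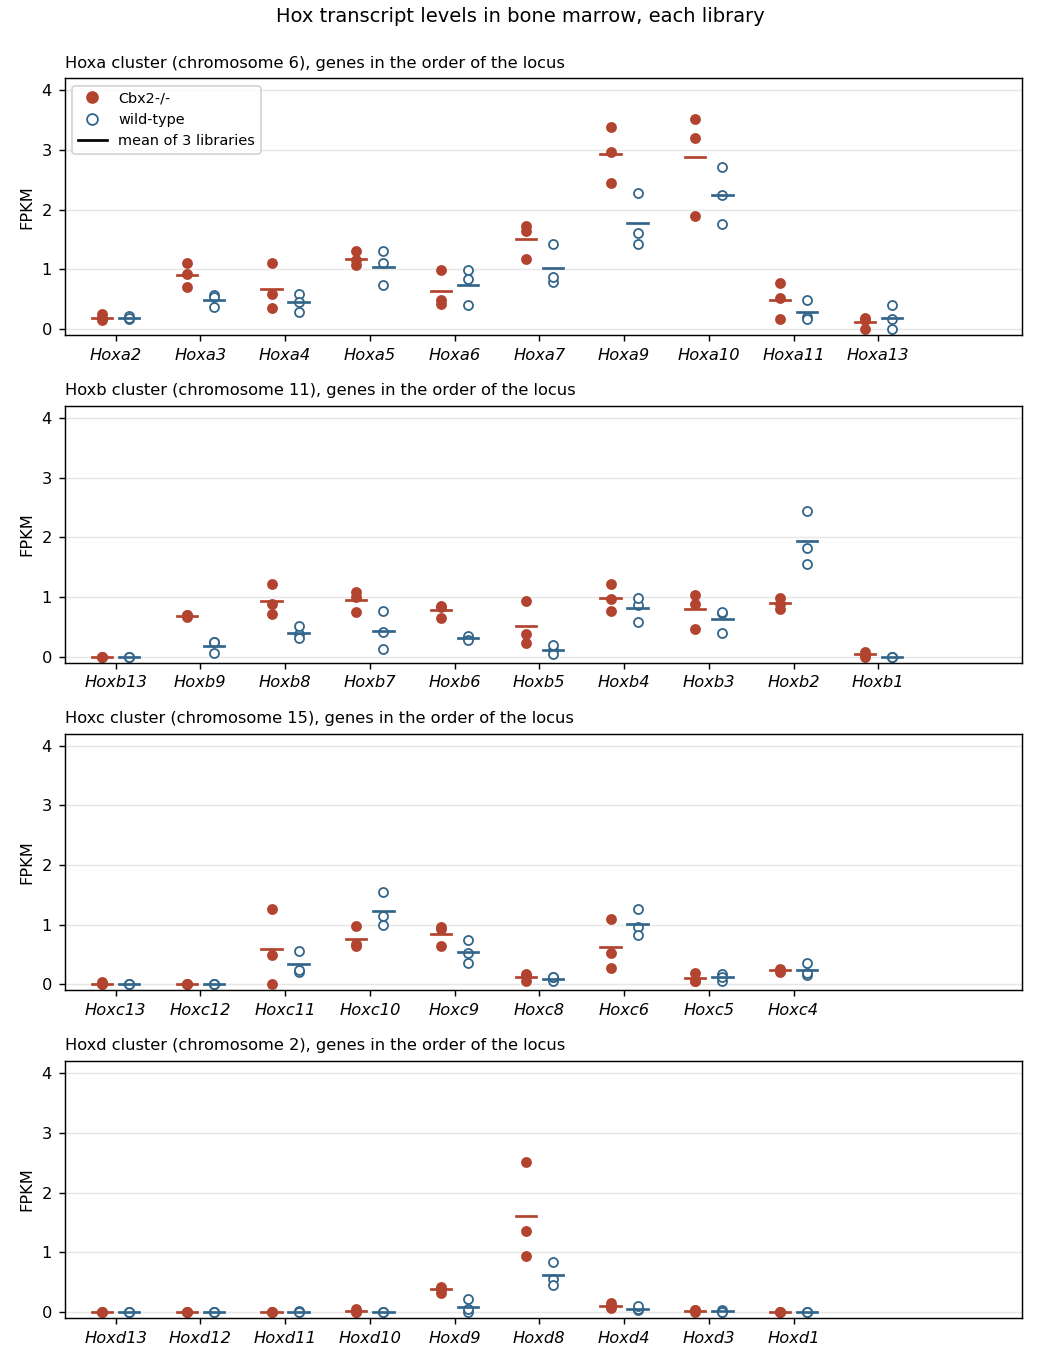
FPKM of the Hox genes reported here (vertical axis, linear) in each library, by cluster and in the order of the locus. Filled points are Cbx2-/- libraries, open points to their right are wild-type libraries, and bars are means of 3. No point exceeds 3.52 FPKM, these genes at the ends lie at or under 0.404 FPKM, and Hoxb9, Hoxb8, Hoxb6 and Hoxb5 are higher and Hoxb2 lower in every Cbx2-/- library.

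Because the levels are low, the genotypes were compared at 2 depths of filter, both fitted with limma over the whole table. The main fit used log2(FPKM + 1) and kept genes that reached 1 FPKM in 3 or more libraries, which let in 6 Hox genes. A second fit, called the low-level fit here, used log2(FPKM + 0.1) and kept genes that reached 0.1 FPKM in 3 or more libraries, which let in 27 Hox genes. The other 12 Hox genes passed neither filter. Differences are Cbx2-/- minus wild-type on the named log2 scale with the SE of the fit, and adjusted p-values are Benjamini-Hochberg values over all genes of the fit. On both scales the size of a change at a low level is understated.

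Across the family, the number of Hox genes that passed the test was close to that of genes in general. In the main fit, 0 of 6 rose and 1 fell, where 8.80% of 12006 genes rose and 8.31% fell. Before adjustment, the limma p was 0.0162 for Hoxa9, higher in Cbx2-/- marrow, and 0.00415 for Hoxb2, lower. The share of all genes under 0.05 before adjustment was not computed, so these values have no background beside them. All Cbx2-/- values lay above the wild-type values in 1 of these 6 genes, beside 21.4% of all genes, and below them in 2, beside 18.2%. Those 2, Hoxb2 and Hoxc10, passed the filter through their wild-type libraries. In the low-level fit, 2 of 27 Hox genes rose, which is 7.41%, beside 7.45% of 15066 genes. In the same fit 1 of 27 fell, which is 3.70%, beside 6.88% of all genes. The 3 Cbx2-/- values lay above all wild-type values in 8 of the 27 genes (29.6%, beside 20.7% of all genes) and below them in 2 (7.41%, beside 17.0%). Among the 8, Hoxb5, Hoxb9 and Hoxd9 reached 0.1 FPKM in 3 libraries only with their Cbx2-/- values, which favours their place in this count. The median difference of the 27 genes was 0.32 log2 units, beside 0.03 for all genes of that fit. Of the 27 differences, 21 were above 0 and 6 below, beside 7955 above and 7111 below among all 15066 genes of that fit. This count of directions was not tested. The 3 that passed, Hoxb9, Hoxb6 and Hoxb2, are all in the Hoxb cluster. In bulk marrow, fewer cells of a type and less RNA per cell cannot be told apart in any of these values.

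**Figure D2:**
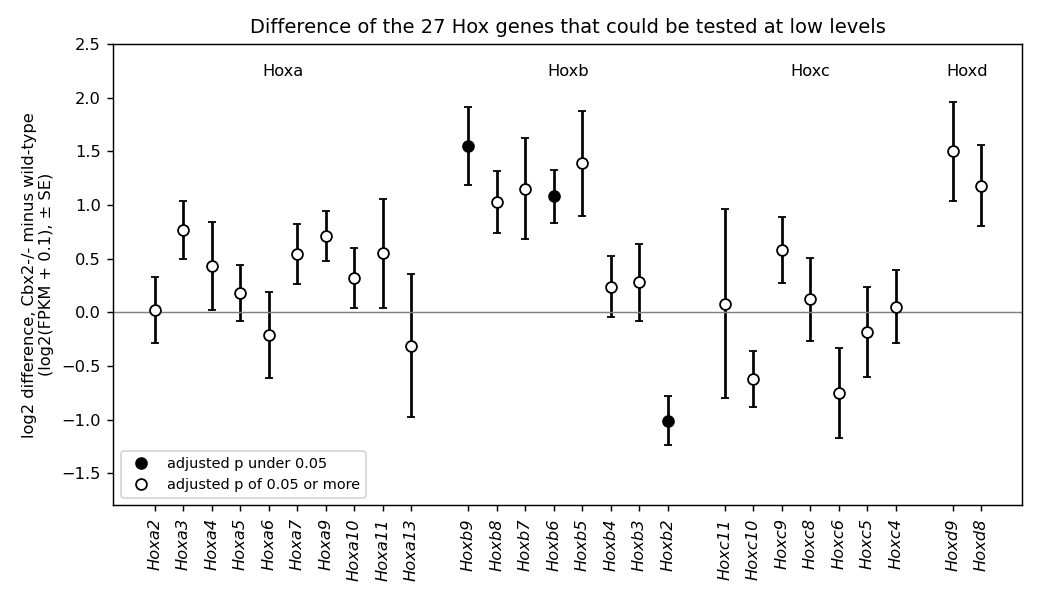
Difference of the 27 Hox genes in the low-level fit (vertical axis, log2(FPKM + 0.1), Cbx2-/- minus wild-type, with SE), by cluster and in the order of the locus. Filled points have an adjusted p under 0.05. Hoxb9 to Hoxb5 lie between 1.03 and 1.55, Hoxb2 at -1.01, and the Hoxa and Hoxc genes between -0.75 and 0.77.

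Within the Hoxb cluster (chromosome 11), 2 genes rose in the low-level fit, Hoxb9 and Hoxb6, and Hoxb2 fell. Hoxb2 also passed as lower in the main fit, but it entered that fit through its wild-type values alone. The genes between and beside those that rose, Hoxb8, Hoxb7 and Hoxb5, had higher means in Cbx2-/- marrow and did not pass. Hoxb9, a gene of thoracic identity (chromosome 11, 96271329 to 96276593, mm10), was at 0.694, 0.668 and 0.707 FPKM in Cbx2-/- marrow and at 0.0648, 0.253 and 0.239 FPKM in wild-type marrow. All 3 Cbx2-/- values lay above the wild-type range. It rose by 1.55 ± 0.36 in the low-level fit (SE, limma adjusted p = 0.0282). Hoxb9 was under 0.1 FPKM in wild-type replicate 1, so it met the minimum of that fit only with its Cbx2-/- values. The estimated number of reads behind these values was 22, 19 and 21 in Cbx2-/- libraries and 2, 6 and 8 in wild-type libraries, so counting error is large at these levels. The Cbx2-/- SD of 0.0198 FPKM is below the counting error of so few reads, so the spread of these values may understate the error. The call was lost without Cbx2-/- replicate 1 or 2 (limma adjusted p = 0.0901 and 0.057) and without wild-type replicate 1, 2 or 3 (limma adjusted p = 0.071, 0.0577 and 0.0644), with differences of 1.19 to 1.74 over all the fits that left out 1 library.

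Hoxb6 (chromosome 11, 96299170 to 96301569), a mid-cluster gene, was at 0.837, 0.651 and 0.853 FPKM in Cbx2-/- marrow and at 0.309, 0.354 and 0.286 FPKM in wild-type marrow. Estimated reads numbered 14 to 21 in Cbx2-/- libraries and 6 or 7 in wild-type libraries, and the groups did not overlap. As with Hoxb9, 1 SD, here the wild-type SD of 0.0348 FPKM, is below the counting error of so few reads. The spread of these values may therefore understate the error. Hoxb6 rose by 1.08 ± 0.25 in the low-level fit (SE, limma adjusted p = 0.0289). The difference stayed between 1.01 and 1.19 with any 1 library left out. The call was lost without Cbx2-/- replicate 1 (limma adjusted p = 0.103) and without wild-type replicate 1, 2 or 3 (limma adjusted p = 0.1, 0.0806 and 0.0992). With both muscle-bearing libraries left out, which leaves 1 Cbx2-/- library, the difference was 1.20 for Hoxb6 and 1.58 for Hoxb9.

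Hoxb8, Hoxb5 and Hoxb7 did not pass. Hoxb8, which in mice can hold myeloid progenitors in an immature state when overexpressed, was at 0.879, 1.22 and 0.721 FPKM in Cbx2-/- marrow and at 0.388, 0.518 and 0.310 FPKM in wild-type marrow. Its groups did not overlap, and the difference was 1.03 ± 0.29 (SE, limma adjusted p = 0.0536, and 0.0247 to 0.165 with 1 library left out, the lowest without Cbx2-/- replicate 3). Hoxb5, whose expression marks long-term stem cells in mouse marrow, was at 0.937, 0.235 and 0.387 FPKM in Cbx2-/- marrow and at 0.116, 0.196 and 0.0477 FPKM in wild-type marrow. Cbx2-/- replicate 1 was well above the other libraries, and the difference was 1.39 ± 0.49 (SE, limma adjusted p = 0.0989). Wild-type replicate 3 was under 0.1 FPKM, so Hoxb5 too met the minimum of the low-level fit only with its Cbx2-/- values. Hoxb7 was at 0.998, 1.09 and 0.751 FPKM in Cbx2-/- marrow and at 0.760, 0.412 and 0.132 FPKM in wild-type marrow. Its groups overlapped by one pair of values, Cbx2-/- replicate 3 and wild-type replicate 1 (difference 1.15 ± 0.47, SE, limma adjusted p = 0.142). Summed over Hoxb5 to Hoxb9, the level was 4.34, 3.87 and 3.42 FPKM in Cbx2-/- marrow and 1.64, 1.73 and 1.01 FPKM in wild-type marrow, a ratio of means of 2.65. This stretch was picked out after its values were seen, so its sum has no test.

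Hoxb2 (chromosome 11, 96351631 to 96354014), known for patterning the hindbrain, went the other way. It was at 0.805, 0.890 and 0.991 FPKM in Cbx2-/- marrow and at 2.44, 1.82 and 1.55 FPKM in wild-type marrow. The groups did not overlap, and the wild-type values were also more spread. It fell by 0.62 ± 0.16 on the log2(FPKM + 1) scale (SE, limma adjusted p = 0.0315), with a mean 2.16-fold lower. It entered the main fit through its wild-type values alone, since no Cbx2-/- library reached 1 FPKM. In the low-level fit, whose minimum it reached in every library, it fell by 1.01 ± 0.23 (SE, limma adjusted p = 0.0273). That call too was lost without Cbx2-/- replicate 1 or 2 and without wild-type replicate 1, 2 or 3. The call of the main fit was lost without Cbx2-/- replicate 1 or 2 (limma adjusted p = 0.103 and 0.0617) and without wild-type replicate 1, 2 or 3 (limma adjusted p = 0.122, 0.0921 and 0.0544), and kept without Cbx2-/- replicate 3 (limma adjusted p = 0.0177).

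Hoxb3 and Hoxb4, which lie between Hoxb2 and Hoxb5, did not pass. Hoxb4, known for expanding blood stem cells when overexpressed, was at 0.758, 0.960 and 1.22 FPKM in Cbx2-/- marrow and at 0.589, 0.874 and 0.982 FPKM in wild-type marrow (difference 0.24 ± 0.28 in the low-level fit, SE, limma adjusted p = 0.62). Hoxb3 was at 1.04, 0.470 and 0.882 FPKM in Cbx2-/- marrow and at 0.406, 0.734 and 0.755 FPKM in wild-type marrow (limma adjusted p = 0.661). Both pairs of groups overlapped. At the ends, Hoxb13 was listed at 0 in every library and Hoxb1 was listed at 0 in all but Cbx2-/- replicates 1 and 2, at 0.0363 and 0.0843 FPKM. The order of levels within the cluster therefore differed by genotype: Hoxb2 stood first in each wild-type library, whereas Hoxb4, Hoxb7, Hoxb8, Hoxb2, Hoxb3 and Hoxb6 had Cbx2-/- means of 0.980 down to 0.780 FPKM, with overlapping ranges between neighbours in that order.

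**Figure D3:**
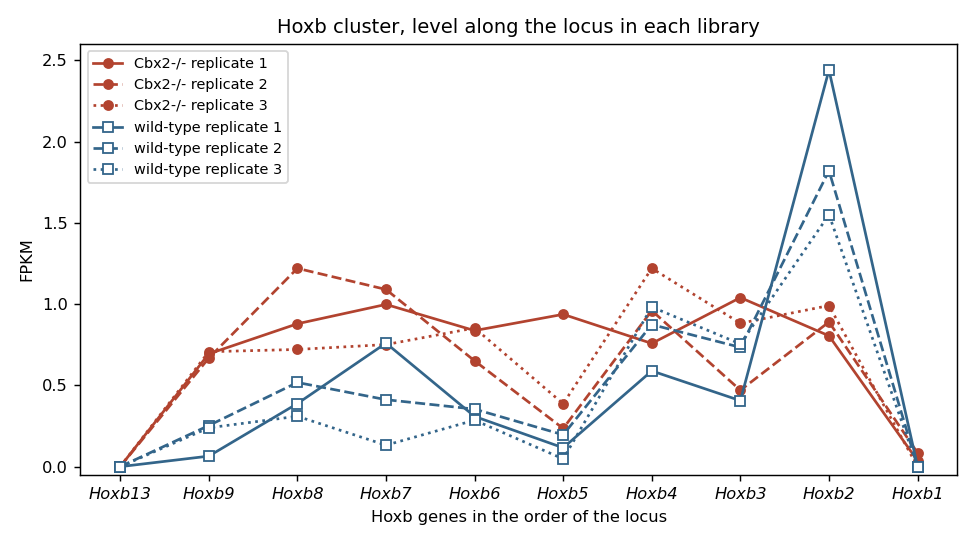
FPKM of the Hoxb genes (vertical axis, linear) in the order of the locus, with one line for each library, filled circles for Cbx2-/- and open squares for wild-type. The Cbx2-/- lines run above the wild-type lines from Hoxb9 to Hoxb5, apart from Hoxb7 where 0.751 and 0.760 FPKM meet, and below them at Hoxb2.

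The Hoxa cluster (chromosome 6) held the most abundant Hox genes, and none of its genes passed the test. Hoxa9, a regulator of stem and progenitor cells that is needed for normal lymphoid and myeloid output, was at 3.38, 2.96 and 2.44 FPKM in Cbx2-/- marrow and at 1.43, 2.28 and 1.61 FPKM in wild-type marrow. The groups did not overlap, and the difference was 0.51 ± 0.17 (main fit, SE, limma adjusted p = 0.0749, and 0.0252 to 0.237 with 1 library left out, the lowest without Cbx2-/- replicate 3). Hoxa10, which acts in blood progenitors and in hindlimb skeleton, was at 1.90, 3.21 and 3.52 FPKM in Cbx2-/- marrow and at 2.25, 2.71 and 1.76 FPKM in wild-type marrow, with overlapping groups (0.24 ± 0.20, SE, limma adjusted p = 0.464). Hoxa7 was at 1.73, 1.65 and 1.17 FPKM in Cbx2-/- marrow and at 0.782, 1.43 and 0.880 FPKM in wild-type marrow (limma adjusted p = 0.26). Its groups overlapped, as did those of Hoxa5, which shapes the lung and the cervical skeleton, at 1.07, 1.16 and 1.31 FPKM in Cbx2-/- marrow and 0.737, 1.31 and 1.10 FPKM in wild-type marrow (limma adjusted p = 0.725).

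In wild-type marrow, Hoxa10 (2.24 ± 0.475 FPKM), Hoxb2 (1.94 ± 0.453 FPKM) and Hoxa9 (1.77 ± 0.445 FPKM) led the 39 genes and did not differ beyond their SDs (n = 3 each). In Cbx2-/- marrow Hoxa9 (2.93 ± 0.468 FPKM) and Hoxa10 (2.87 ± 0.857 FPKM) led (SD, n = 3 each). Among the anterior Hoxa genes, Hoxa3, which is required for thymus and parathyroid formation, was at 0.924, 1.11 and 0.705 FPKM in Cbx2-/- marrow and at 0.379, 0.568 and 0.534 FPKM in wild-type marrow. The groups did not overlap (low-level fit 0.77 ± 0.27, SE, limma adjusted p = 0.103, and 0.0419 to 0.285 with 1 library left out, the lowest without Cbx2-/- replicate 3). The table gives Hoxa3, Hoxa4, Hoxa5, Hoxa6 and the antisense gene Hoxaas3 a shared locus, and whether strand was used in counting is not known here, so how reads were divided among them is uncertain. Of the other Hoxa genes, Hoxa2, Hoxa4, Hoxa6, Hoxa11 and Hoxa13 had overlapping groups and no value above 1.10 FPKM. Summed over 11 genes, the cluster was at 11.2, 12.6 and 11.3 FPKM in Cbx2-/- marrow and at 7.81, 10.8 and 7.02 FPKM in wild-type marrow.

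Hoxc genes (chromosome 15) showed no common direction. Hoxc10, a gene of lumbar and hindlimb identity, was at 0.678, 0.977 and 0.645 FPKM in Cbx2-/- marrow and at 1.0, 1.55 and 1.14 FPKM in wild-type marrow. The groups were separate by a small margin, and the difference did not pass (-0.33 ± 0.16 in the main fit, SE, limma adjusted p = 0.193). Like Hoxb2, it entered the main fit through its wild-type values alone. Hoxc6 was at 0.278, 0.522 and 1.09 FPKM in Cbx2-/- marrow and at 0.955, 1.27 and 0.826 FPKM in wild-type marrow. Cbx2-/- replicate 3 lay within the wild-type range, and the low-level difference of -0.75 ± 0.42 (SE, limma adjusted p = 0.276) was -1.18 without that library (limma adjusted p = 0.0312) and 0.12 without the other Cbx2-/- libraries. Over the fits that left out 1 library it ran from -1.18 to -0.35. Hoxc11 was listed at 0 in Cbx2-/- replicate 1 and was at 1.27 and 0.485 FPKM in replicates 2 and 3, against 0.206, 0.239 and 0.559 FPKM in wild-type marrow. Hoxc9, a thoracic gene, was at 0.636, 0.935 and 0.965 FPKM in Cbx2-/- marrow and at 0.362, 0.746 and 0.523 FPKM in wild-type marrow, with overlapping groups (limma adjusted p = 0.253). Hoxc4, Hoxc5 and Hoxc8 stayed at or under 0.352 FPKM in every library. Summed over 9 genes, Hoxc was at 1.90, 4.28 and 3.70 FPKM in Cbx2-/- marrow and at 2.80, 4.44 and 3.48 FPKM in wild-type marrow, so the groups overlapped.

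In the Hoxd cluster (chromosome 2), Hoxd8 and Hoxd9 carried most of the signal. Hoxd8 (74704614 to 74707932) was at 1.36, 0.929 and 2.51 FPKM in Cbx2-/- marrow and at 0.555, 0.841 and 0.445 FPKM in wild-type marrow. The groups did not overlap, Cbx2-/- replicate 3 was the highest, and the low-level difference was 1.18 ± 0.38 (SE, limma adjusted p = 0.0795). Over the fits that left out 1 library, the difference ran from 0.82 without Cbx2-/- replicate 3 (limma adjusted p = 0.0967) to 1.49 without Cbx2-/- replicate 2 (limma adjusted p = 0.0412), the one of these that passed. With both muscle-bearing libraries left out it was 1.91, but this leaves 1 Cbx2-/- library, replicate 3, the highest for Hoxd8. Its neighbour Hoxd9 was at 0.424, 0.316 and 0.388 FPKM in Cbx2-/- marrow, against 0.211 and 0.0499 FPKM in wild-type replicates 2 and 3, and was listed at 0 in wild-type replicate 1. The groups did not overlap. Only 1 wild-type library reached 0.1 FPKM, so the gene entered the low-level fit through its Cbx2-/- values, and its difference of 1.5 ± 0.46 is given as a description (SE, limma adjusted p = 0.0656, and 0.043 to 0.187 with 1 library left out). The genes of the distal limb, Hoxd10 to Hoxd13, were listed at 0 in every library but one each for Hoxd10 (0.0467 FPKM in Cbx2-/- replicate 2) and Hoxd11 (0.0188 FPKM in wild-type replicate 1). On the anterior side, Hoxd4 was at 0.0633, 0.148 and 0.104 FPKM in Cbx2-/- marrow and at 0.0374, 0.0422 and 0.0927 FPKM in wild-type marrow, Hoxd3 was at or under 0.0384 FPKM, and Hoxd1 was listed at 0. The summed Hoxd level was 1.88, 1.44 and 3.04 FPKM in Cbx2-/- marrow and 0.650, 1.09 and 0.588 FPKM in wild-type marrow, a ratio of means of 2.73, which ranged from 2.14 to 3.42 with 1 library left out.

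Promoter sequence was looked at because Polycomb complexes of mammals are found at promoters rich in CpG. RefSeq promoters (GRCm38.p6) were matched by symbol for 22 of the 39 genes, with 24 starts, and read over the 250 bases before the start. Hoxb2, Hoxb6 and Hoxb9, the genes that passed in the low-level fit, had no match, and Hoxc4 was the only Hoxc gene with one. Those of Hoxa9, with the highest Hox mean in Cbx2-/- marrow, of Hoxb8 and Hoxd9, each with all 3 Cbx2-/- values above the wild-type values, and of Hoxd13, listed at 0 throughout, are printed here from 5′ to 3′ on the gene's strand, with each CpG (letters CG) in capitals. They lie at chr6:52227371-52227620 on the minus strand, and at chr11:96281655-96281904, chr2:74697513-74697762 and chr2:74667975-74668224 on the plus strand.
Hoxa9: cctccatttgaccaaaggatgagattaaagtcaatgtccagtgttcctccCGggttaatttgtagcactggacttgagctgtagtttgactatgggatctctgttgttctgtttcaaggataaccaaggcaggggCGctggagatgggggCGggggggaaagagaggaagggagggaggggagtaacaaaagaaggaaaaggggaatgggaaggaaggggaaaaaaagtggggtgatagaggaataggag
Hoxb8: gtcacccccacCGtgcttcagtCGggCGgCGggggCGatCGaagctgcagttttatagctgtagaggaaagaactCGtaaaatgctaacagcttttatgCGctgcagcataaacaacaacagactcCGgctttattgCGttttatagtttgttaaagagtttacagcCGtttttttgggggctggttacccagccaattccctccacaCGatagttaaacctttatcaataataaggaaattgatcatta
Hoxd9: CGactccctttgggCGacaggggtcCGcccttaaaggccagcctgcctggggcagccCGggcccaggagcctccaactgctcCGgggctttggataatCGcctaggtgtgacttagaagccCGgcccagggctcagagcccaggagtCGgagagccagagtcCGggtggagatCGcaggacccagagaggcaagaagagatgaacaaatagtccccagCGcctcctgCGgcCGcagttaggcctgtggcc
Hoxd13: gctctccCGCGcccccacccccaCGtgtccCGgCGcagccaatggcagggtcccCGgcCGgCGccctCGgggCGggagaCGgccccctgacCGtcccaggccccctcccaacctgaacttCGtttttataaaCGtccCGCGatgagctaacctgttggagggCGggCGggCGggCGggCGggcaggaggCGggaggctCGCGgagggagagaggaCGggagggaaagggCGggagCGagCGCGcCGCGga
These windows held 3 CpGs in Hoxa9, 12 in Hoxb8, 13 in Hoxd9 and 31 in Hoxd13. Over all 24 starts CpG number did not strictly order the genes by level, and no measure over the starts was computed. Hoxa5, above 1 FPKM in both means, had 28, whereas Hoxd12, listed at 0, had 10 and Hoxd4, near 0, had 3. Other genes went the opposite way: Hoxa13, at or under 0.404 FPKM, had 35, whereas Hoxa7 had 7 and Hoxd8 had 6. The ratio of observed to expected CpG was 0.266, 0.974, 0.490 and 0.901 for the same genes. Over the 24 Hox starts the median ratio was 0.721, and 13 of them (54.2%) were above 0.6, beside a median of 0.541 and a share of 45.5% among 20464 promoters of genes in the table. The Hox ratios ran from 0.16 to 1.11.

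**Figure D4:**
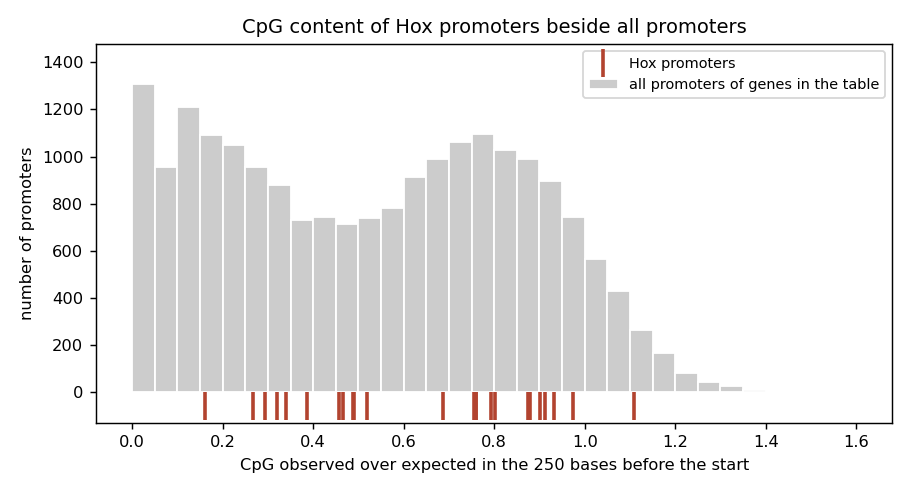
Number of promoters (vertical axis) by CpG observed over expected in the 250 bases before the start (horizontal axis). Grey bars are all promoters of genes in the table and red ticks are the 24 Hox promoters, which run from 0.16 to 1.11 through both humps of the grey distribution.

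Hox proteins bind DNA together with cofactors of the TALE class, the Pbx, Meis and Pknox proteins. Of 9 such genes 7 were tested in the main fit, and 2 rose, 0 fell and 5 did not pass, beside 8.80% of all genes that rose and 8.31% that fell. The median difference was 0.08, beside 0.02 for all genes. Pbx2 rose to 31.1 ± 2.18 FPKM in Cbx2-/- marrow, against 21.8 ± 2.13 FPKM in wild-type marrow (SD, n = 3 each, limma adjusted p = 0.0498). Meis1, the partner of Hoxa9 in myeloid progenitors, was at 1.68, 2.0 and 2.25 FPKM in Cbx2-/- marrow and at 2.18, 1.96 and 1.69 FPKM in wild-type marrow, with overlapping groups (limma adjusted p = 0.961).

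Among 17 genes that activate Hox transcription, 13 were tested, of which 2 rose and 1 fell, beside 8.80% and 8.31% of all genes, so the list's counts were few and not far from the background. Rara, a retinoic acid receptor gene, rose to 15.3 ± 2.22 FPKM in Cbx2-/- marrow, against 8.44 ± 0.142 FPKM in wild-type marrow (SD, n = 3 each, limma adjusted p = 0.00953). Kdm6b, which removes the histone mark of Polycomb repressive complex 2, rose to 10.6 ± 1.48 FPKM in Cbx2-/- marrow, against 7.23 ± 0.156 FPKM in wild-type marrow (SD, n = 3 each, limma adjusted p = 0.0433). Psip1, which tethers the MLL methyltransferase to chromatin, fell to 23.9 ± 5.74 FPKM in Cbx2-/- marrow, against 39.1 ± 3.20 FPKM in wild-type marrow (SD, n = 3 each, limma adjusted p = 0.0458). Kmt2a, the MLL gene, was at 2.57, 2.68 and 7.33 FPKM in Cbx2-/- marrow and at 4.12, 3.97 and 4.16 FPKM in wild-type marrow, so Cbx2-/- replicate 3 lay above and replicates 1 and 2 below the wild-type range (limma adjusted p = 0.882). The caudal genes Cdx1, Cdx2 and Cdx4, upstream activators of Hox genes in the embryo, were listed at 0 in every library.

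Of 9 genes described as bound and driven by Hoxa9 and Meis1 in myeloid progenitors, 1 rose and 2 fell, beside 8.80% and 8.31% of all genes, with a median difference of -0.02. Id2 rose to 83.3 ± 4.12 FPKM in Cbx2-/- marrow, against 30.9 ± 1.85 FPKM in wild-type marrow (SD, n = 3 each, limma adjusted p = 0.00117). Sox4, which is also expressed in B cell precursors, fell to 4.23 ± 1.79 FPKM in Cbx2-/- marrow, against 15.6 ± 1.97 FPKM in wild-type marrow (SD, n = 3 each, limma adjusted p = 0.0034). Lmo2, which is also expressed in red cell precursors, was at 117, 137 and 94.2 FPKM in Cbx2-/- marrow and at 213, 213 and 174 FPKM in wild-type marrow, and fell by 0.79 on the log2(FPKM + 1) scale (limma adjusted p = 0.0326). Of 19 limb patterning factors, 6 were tested, and 0 rose and 1 fell, beside the same 8.80% and 8.31% of all genes. Tbx2, a T-box repressor, fell to 4.84 ± 1.05 FPKM in Cbx2-/- marrow, against 9.36 ± 0.287 FPKM in wild-type marrow (SD, n = 3 each, limma adjusted p = 0.0114). Pitx1, the hindlimb identity factor, was at 0.775, 1.5 and 1.07 FPKM in Cbx2-/- marrow and at 2.0, 2.14 and 1.71 FPKM in wild-type marrow, with separate groups (limma adjusted p = 0.0807), as also in Shox2 and Prrx1 (limma adjusted p = 0.0738 and 0.0808). Among all genes of the main fit, 18.2% had every Cbx2-/- value below the wild-type values.

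Marker levels of several cell types moved with genotype beside the Hox genes. The counts that follow are of the main fit, in which 8.80% of all genes rose and 8.31% fell. Of 8 stem and progenitor markers, 7 were tested and 1 rose, Kit, the stem cell factor receptor gene, to 16.4 ± 3.05 FPKM in Cbx2-/- marrow, against 8.01 ± 0.804 FPKM in wild-type marrow (SD, n = 3 each, limma adjusted p = 0.0084). The summed level of this list was 47.5 to 68.6 FPKM in Cbx2-/- marrow and 37.4 to 49.2 FPKM in wild-type marrow, with overlapping groups. Of 6 osteoblast markers 5 fell, with sums of 576 to 856 FPKM in Cbx2-/- marrow and 5960 to 9910 FPKM in wild-type marrow. Of 6 marrow stroma markers 3 rose (Lepr, Kitl and Pdgfrb), with sums of 372 to 915 FPKM in Cbx2-/- marrow and 315 to 407 FPKM in wild-type marrow. The other 3 did not pass: Cxcl12 differed by 0.62, Pdgfra by -0.44 and Prrx1 by -0.75, the last with all Cbx2-/- values below the wild-type values. Of 6 endothelial markers 4 rose, with sums of 92.6 to 133 FPKM in Cbx2-/- marrow and 53.6 to 55.4 FPKM in wild-type marrow. All 6 B cell precursor markers fell, with sums of 43.1 to 81 FPKM in Cbx2-/- marrow and 367 to 482 FPKM in wild-type marrow, and 4 of 5 erythroid markers fell. Of 5 adipocyte markers 4 rose, with sums of 1800 to 2270 FPKM in Cbx2-/- marrow and 183 to 376 FPKM in wild-type marrow. No marker of these lists was at 0 in all libraries. Their part in the Hox differences was not tested. In Cbx2-/- replicates 1, 2 and 3 the muscle sums were 313, 358 and 11.1 FPKM, and the Hoxb5 to Hoxb9 sums 4.34, 3.87 and 3.42 FPKM. A relation between these sums was not tested.

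**Figure D5:**
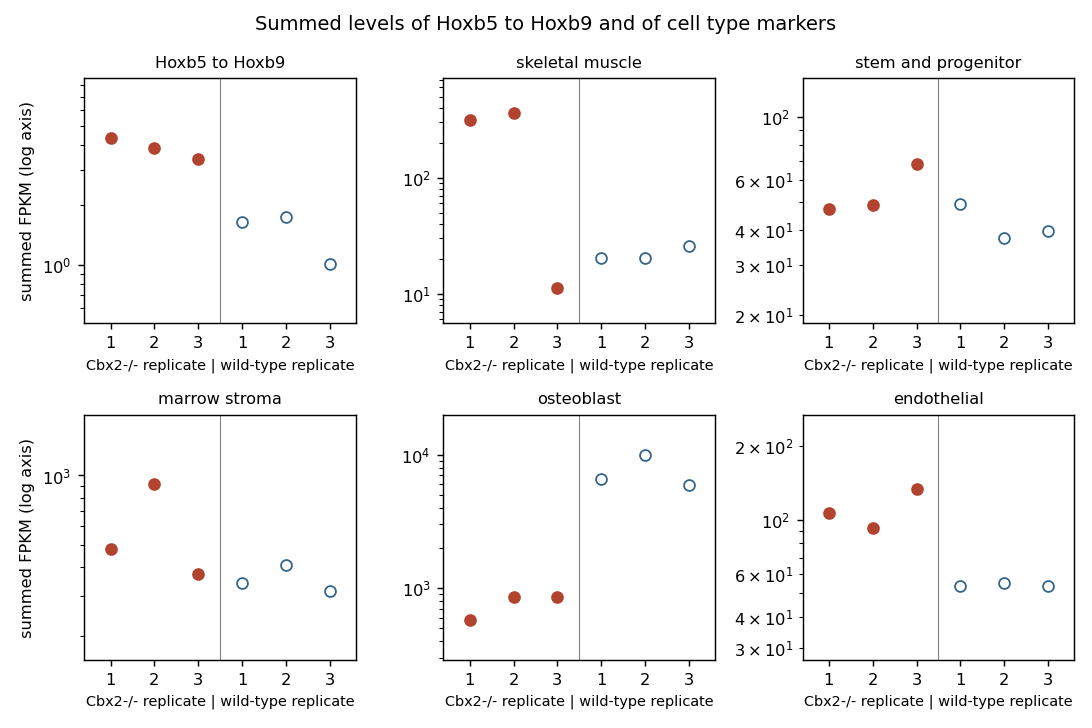
Summed FPKM (vertical axes, log scale) of Hoxb5 to Hoxb9 and of 5 lists of cell type markers in each library, with Cbx2-/- libraries as filled points on the left and wild-type libraries as open points on the right of each panel. The Hoxb sum is 3.42 to 4.34 FPKM in Cbx2-/- and 1.01 to 1.73 FPKM in wild-type libraries. The muscle sum is high in 2 Cbx2-/- libraries and lowest in the third.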

How the data were processed

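RNA sequencing of bone marrow from 3 Cbx2-/- and 3 wild-type mice was analysed from 1 deposited table. A stranded mRNA kit and single-end reads of 50 bases were used, per the labels' protocols. The submitters' processing notes list Cufflinks 2.2.1, TopHat2 2.1.0 and FastQC 0.11.5, and mm10 as the build, without roles or settings. The gene annotation and the strand setting are unknown here. The authors deposited FPKM values for 22838 genes.

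Relative depth was estimated from the commonest ratio of values under 0.15 FPKM (0.911 to 1.21 times that of wild-type replicate 1). The worth of 1 read came from 13 genes with a single GENCODE vM21 transcript over 800 bases whose values above 0 agreed within 3% after scaling by depth. Its quartiles for 2000 bases were 0.0442 and 0.0568 FPKM in wild-type replicate 1, so read numbers, which use the longest coding GENCODE transcript of a gene, are approximate. They cover counting error only.

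Tests of genotype used R 4.3.3 and limma 3.58.1, two-sided, with limma's trend option and without a block, and p-values were adjusted by Benjamini-Hochberg over all genes of a fit (threshold 0.05). The main fit used log2(FPKM + 1) and at least 1 FPKM in at least 3 of 6 libraries, and the low-level fit a pseudocount and minimum of 0.1 FPKM. Replicate p-values measure the spread between these libraries. The script was tested on simulated data. The Hox genes and the lists were chosen with earlier results of these data known. Hox genes with a mean of at least 1 FPKM in either genotype, or past the threshold in any fit, were named with every value, and for other lists those of lowest adjusted p and some by level. Hoxb3, Hoxb4, Hoxb5, Hoxb7, Hoxc9, Hoxc11, Hoxd4, Meis1, Kmt2a and Pitx1 were named outside this rule after their values were seen. Positions are as in the deposited table (mm10), and genes sharing a locus were ordered by GENCODE. Alternatives were other filters, pseudocounts, scalings and limma settings, a replicate block and each library left out. Fits without both muscle-bearing libraries, and the alternatives to the low-level fit, were added after seeing the data. Some genes are not reported here. Figures were drawn with matplotlib 3.10.9.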

Additional observations from a re-analysis of the deposited data

How the results depend on the processing

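Over 15 Hox genes and their alternatives, 195 values were recomputed. The direction held in all but 2: Hoxa5 was at -0.02 without wild-type replicate 1 (-0.02 to 0.19 over libraries left out), and Hoxc6 at 0.12 with both muscle-bearing libraries left out. No call was added or lost under the scalings or limma settings in the main fit, and median scaling turned 0 of 27 directions in the low-level fit. The count of Hox genes higher in Cbx2-/- marrow was 0 in the main fit, 3 with no filter on low values (Hoxb6, Hoxb9 and Hoxd9), 2 with at least 0.1 FPKM in 3 libraries at either pseudocount, and 0 to 1 with 1 library left out. Among all genes, 882 rose with no filter. With at least 0.1 FPKM in 3 libraries, 1081 of 15066 rose at a pseudocount of 1 and 1123 at 0.1. The count of lower Hox genes was 1 in the main fit and 0 to 1 with 1 library left out. In the low-level fit, leaving out 1 library gave 0 to 5 higher and 0 to 2 lower. Without Cbx2-/- replicate 3 the 5 higher genes were Hoxa3, Hoxa9, Hoxb6, Hoxb8 and Hoxb9, where 14.0% of all genes rose. Over all 12006 genes, 1057 rose and 998 fell, against 367 to 2069 and 475 to 1719 with 1 library left out, and 2047 and 2714 without both muscle-bearing libraries. Whether the replicate numbers pair the samples is not known here. The correlation of deviations (0.194, -0.179 and -0.103 for numbers 1, 2 and 3) has no reference beside it and cannot decide this. The replicate block gave 0 Hox genes in either direction in both fits, with an adjusted p of 0.0771 for Hoxb2, 0.0819 for Hoxb6 and 0.0539 for Hoxb9, and 634 higher genes in all. Depth limits every Hox gene under about 1 FPKM.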

Other observations

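Other transcripts of the clusters were few and low, and are described here as values. Inside the Hoxb cluster, the unnamed gene model Gm11538, between Hoxb13 and Hoxb9, was at 0.125, 0.224 and 0.102 FPKM in Cbx2-/- marrow, against 0.0403 FPKM in wild-type replicate 2, and was listed at 0 in the other wild-type libraries. It reached 0.1 FPKM in the Cbx2-/- libraries alone and so entered the low-level fit through them, and its limma adjusted p of 0.0965 is given as a description. Inside the Hoxa cluster, the antisense gene Hoxa11os was at 0.215, 0.687 and 1.07 FPKM in Cbx2-/- marrow and at 0.373, 0.143 and 0.161 FPKM in wild-type marrow, with overlapping groups (low-level fit, limma adjusted p = 0.204). It shares its locus with Hoxa11, so the reads of the pair cannot be told apart without the strand setting. Hoxd3os1, in the Hoxd cluster, was listed at 0 in all wild-type libraries and in Cbx2-/- replicate 1, with 0.136 FPKM in Cbx2-/- replicate 2 and 0.263 FPKM in replicate 3. Hotair, the noncoding gene of the Hoxc cluster, was at or under 0.0613 FPKM in every library, and Hottip, beside the Hoxa cluster, was above 0 in 1 library, Cbx2-/- replicate 3, at 0.0288 FPKM.

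The non-Hox genes next to the clusters did not pass the main fit where they were tested. Skap2, beside the Hoxa cluster and an adaptor protein gene of blood cells, was at 66.4, 55.6 and 58.2 FPKM in Cbx2-/- marrow and at 46.6, 36.7 and 41.7 FPKM in wild-type marrow, with separate groups (limma adjusted p = 0.0615). Skap1, beside Hoxb1, was at 1.02, 1.55 and 1.84 FPKM in Cbx2-/- marrow and at 1.21, 0.678 and 1.36 FPKM in wild-type marrow (limma adjusted p = 0.429). Mtx2 and Lnp, on either side of the Hoxd cluster, had a limma adjusted p of 0.777 and 0.791, and Calcoco1 and Smug1, on either side of the Hoxc cluster, of 0.849 and 0.947.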
